A study of Mus musculus with 4 samples.

Results

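The 9 genes described here encode the PHD-finger protein Phf21b, its paralogue Phf21a and the core of the LSD1-CoREST corepressor complex. They were chosen by name as Phf21a, Phf21b, Kdm1a, Rcor1, Rcor2, Rcor3, Hdac1, Hdac2 and Hmg20b. Each symbol matched 1 of the 34866 gene identifiers in the table, and all 9 passed the filter on low counts, as did 14050 genes in all. Cells came from the dorsal telencephalon of mouse embryos at E11.5, the tissue that forms the cerebral cortex, and were kept for 5 days as floating neurospheres with basic fibroblast growth factor (bFGF) in the medium. In the sh3F group, primary neural stem and progenitor cells received 3 lentiviral vectors at once, with short hairpins against Phf21b, Zfp7 and Zfp57, each at a multiplicity of infection of 10. The shControl group received 1 vector with a control hairpin at 30, so the summed multiplicity was the same. The hairpin against Phf21b was on a CS-EG backbone like the control, while the other hairpins were on pLV-EG, so the number of vectors and the backbone cannot be told apart from the targeting. Both groups were transduced. The genotype label reads WT for shControl cells. For sh3F cells it names a knockdown of Phf21, Sfp7 and Zfp57, without saying which Phf21 paralogue, while the treatment label and protocol name shPhf21b, which is followed here. Each group had 2 libraries, all with 1 batch label, and nothing in the labels says that replicates were separate cultures or litters. The p-values thus rest on the spread between these few libraries alone, which may be technical. Phf21b is the only one of the 9 that was targeted, so its comparison asks how far its transcript differed, and the others ask whether its paralogue and the complex differed beside it.

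LSD1, the product of Kdm1a, is a flavin-dependent demethylase that removes methyl groups from lysine 4 of histone H3 (H3K4), a mark of active promoters. It works with the deacetylases Hdac1 and Hdac2, and a CoREST protein (Rcor1, Rcor2 or Rcor3) holds the enzymes together and lets LSD1 act on nucleosomes. Phf21a, also called BHC80, carries a PHD finger that binds the unmethylated H3K4 tail left by the demethylase, and Hmg20b, also called BRAF35, adds an HMG box that binds DNA. The complex is best known as a partner of the repressor Rest, which keeps neuronal genes silent outside neurons and in neural progenitors.

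Phf21a and Phf21b share the PHD finger, and the stretch that encodes it is shown because reads of the targeted gene had to be told from those of its paralogue. The stretch runs from the first to the last metal-binding cysteine of the finger in the longest coding transcript of GENCODE M21 (GRCm38). It lies within 1 exon in each gene, at chr2:92356885-92357010 on the plus strand for Phf21a and at chr15:84791792-84791917 on the minus strand for Phf21b. Capitals mark the bases that differ.
Phf21a: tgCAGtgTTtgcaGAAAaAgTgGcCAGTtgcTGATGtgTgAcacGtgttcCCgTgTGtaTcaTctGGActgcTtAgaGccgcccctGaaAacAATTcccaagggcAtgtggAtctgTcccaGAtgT
Phf21b: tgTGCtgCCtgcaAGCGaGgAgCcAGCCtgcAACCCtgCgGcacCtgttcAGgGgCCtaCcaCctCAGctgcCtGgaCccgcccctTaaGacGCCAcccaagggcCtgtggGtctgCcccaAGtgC
Of 126 bases 49 differed, an identity of 61.1%, and 18 of the 42 codons encoded another amino acid. The longest identical run was 9 bases. No 31-base word of the Phf21b transcripts occurred in another gene, and 0.235% of those of Phf21a did, so the estimated counts of the pair rested on separate sequence. The sequence of the hairpins was not used here.

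Libraries held 17901386 and 15170491 estimated counts in sh3F cells, and 20779211 and 14694387 in shControl cells. Mitochondrial genes took 26.6% and 28.5% of these in sh3F libraries, against 30.3% and 33.9% in shControl libraries, and their part in the results was not tested beyond a fit without them. Levels are given in CPM, counts relative to library size after TMM scaling, which sets the bulk of genes equal between libraries. All 10 progenitor markers on the list passed the filter, led by Fabp7 at 21430 CPM in sh3F and 25000 CPM in shControl cells. Neuron markers were also present, and their summed level over 10 genes was 580 and 587 CPM in sh3F libraries, against 765 and 704 CPM in shControl libraries. Microglial and macrophage markers summed to 19.2 to 21.7 CPM in sh3F and 14.1 to 19.9 CPM in shControl cells over 8 genes. Among them Csf1r measured 0.0533 and 0.195 CPM in sh3F libraries and had no count in either shControl library. Aif1 measured 0.320 and 0.391 CPM in sh3F libraries, against 0.511 and 0.977 CPM in shControl libraries. Neither passed the filter on low counts. Tyrobp measured 6.18 and 4.63 CPM in sh3F and 5.71 and 5.94 CPM in shControl libraries. Of the 5 tested genes 2 had a fold change above 0 and 3 below. Ptprc, a pan-leukocyte marker, measured 12.6 and 10.6 CPM in sh3F and 5.34 and 10.1 CPM in shControl libraries, with a log2 fold change of 0.63 (edgeR unadjusted p = 0.0048, adjusted p = 0.145). Of the 5 tested genes of this list edgeR and DESeq2 called 0 and limma-voom 1. Endothelial markers (5 genes) summed to 6.84 to 7.46 CPM in sh3F and 6.04 to 8.34 CPM in shControl cells, and pericyte or fibroblast markers (6 genes) to 43.5 to 46.4 CPM in sh3F and 44.5 to 47.3 CPM in shControl cells. Red blood cell markers (6 genes) summed to 37.1 to 39.0 CPM in sh3F and 24.3 to 27.2 CPM in shControl cells, and 1 of their 4 tested genes, the embryonic globin Hbb-y, was higher past the threshold (log2 fold change 0.63; edgeR adjusted p = 0.0399), as were 0.541% of all tested genes. That call was lost with DESeq2 (adjusted p = 0.631), with libraries scaled by size alone (0.111) and without sh3F replicate 1 (0.974) or 2 (0.0858). The part of these other cell types in the results was not tested.

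Phf21b transcripts stood lower in sh3F cells, but by less than the test could call. The gene measured 5.49 and 6.45 CPM in sh3F libraries, against 7.25 and 7.36 CPM in shControl libraries. Both sh3F libraries lay below both shControl libraries, as for 21.7% of all tested genes. The levels of Phf21b rested on 103 and 99 estimated counts in sh3F and 156 and 98 in shControl libraries. The mean was 5.97 ± 0.679 CPM in sh3F and 7.30 ± 0.0823 CPM in shControl cells (SD, n = 2 each). This is 81.6% of the shControl level with a 95% interval of 60.5% to 109.9%, a log2 fold change of -0.29 with an SE of 0.22 (edgeR adjusted p = 0.644). Protein was not analysed here. Among all tested genes, 17.6% had a lower fold change than Phf21b. The gene spans chr15:84785381-84856049 on the minus strand. Of the other targets, Zfp57 had a log2 fold change of -0.40 (SE 0.18) and Zfp7 of -0.37 (SE 0.40), and neither passed (edgeR adjusted p = 0.341 and 0.80). With 1 library left out, Zfp57 ranged from -0.53 (without shControl replicate 2) to -0.23 (without shControl replicate 1). Zfp7 ranged from -0.98 without sh3F replicate 1 to 0.03 without sh3F replicate 2, so its direction was not stable. Phf21b ranged from -0.41 without sh3F replicate 2 to -0.18 without sh3F replicate 1.

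**Figure D1:**
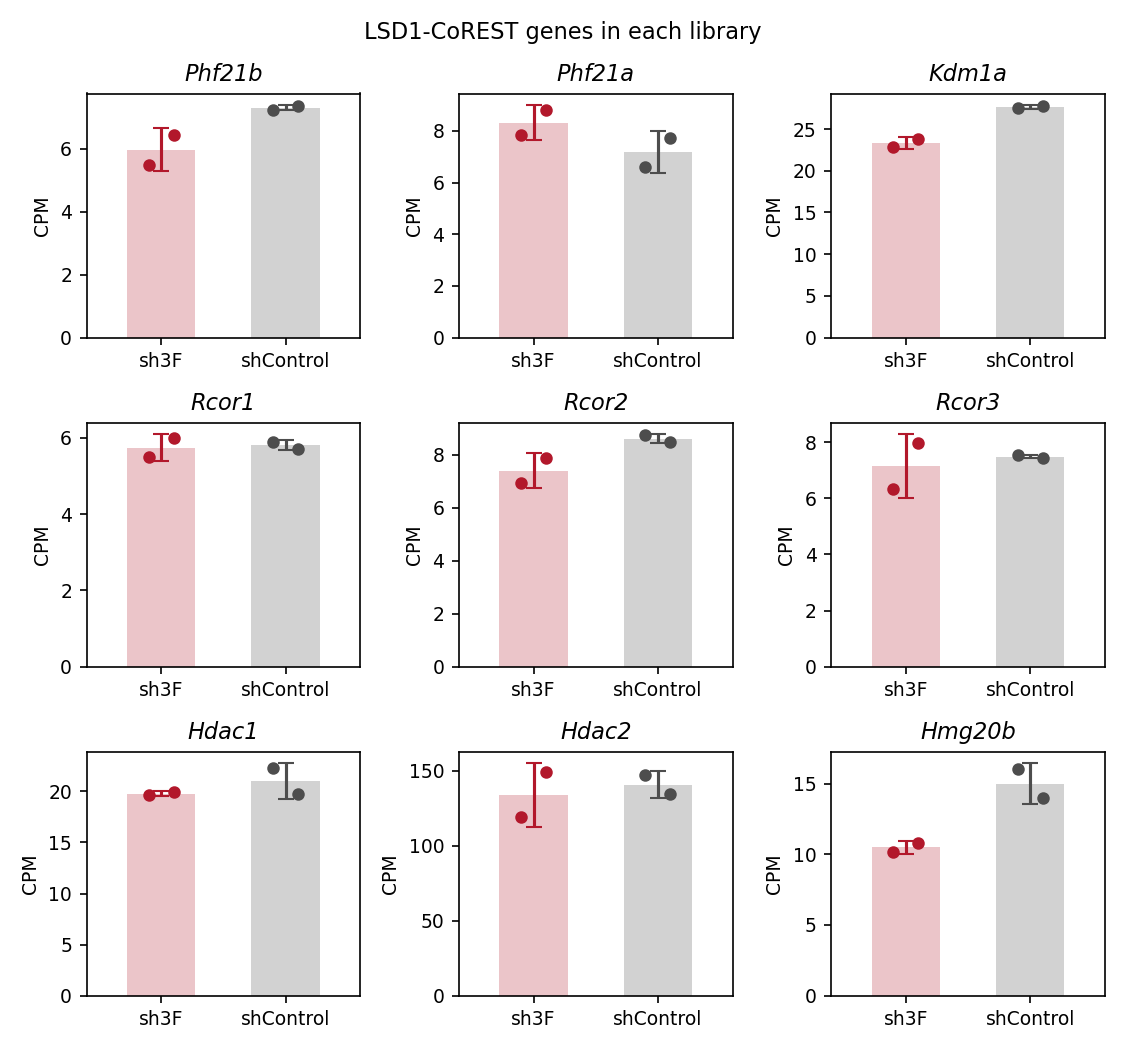
Level of each of the 9 genes in CPM (y axis, from 0), with sh3F on the left and shControl on the right. Points are libraries, bars are means of 2 libraries and error bars are the SD. Phf21b, Kdm1a, Rcor2 and Hmg20b have both sh3F points under both shControl points, and Phf21a has both above.

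Phf21a, the paralogue that was not targeted, stood on the other side. It measured 7.84 and 8.79 CPM in sh3F libraries, against 6.60 and 7.74 CPM in shControl libraries. Both sh3F libraries lay above both shControl libraries, by as little as 7.84 against 7.74 CPM for the nearest pair. The same held for 19.6% of all tested genes. The log2 fold change was 0.22 ± 0.21 (SE; adjusted p = 0.742, edgeR), or 117% of the shControl level with a 95% interval of 87.8% to 155%. With 1 library left out the log2 fold change ranged from 0.10 (without shControl replicate 1) to 0.34 (without shControl replicate 2). The gene spans chr2:92093117-92364666 on the plus strand.

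Within a library, the share of Phf21b in the counts of the pair does not depend on scaling. Phf21b made up 41.2% and 42.3% of the pair's counts in sh3F libraries, against 52.3% and 48.8% in shControl libraries. Exact binomial 95% intervals were 35.0% to 47.6% and 35.9% to 48.9% in sh3F, and 46.5% to 58.1% and 41.7% to 55.9% in shControl libraries. These intervals cover counting error only. The mean share was 41.8% ± 0.785 in sh3F and 50.5% ± 2.54 in shControl cells (SD, n = 2 each), a difference of -8.80 percentage points. An exact two-sided permutation test gave p = 0.33, the smallest this test can give with 2 against 2 libraries, so the test could not have passed the threshold whatever the shares. The sh3F and shControl shares did not overlap, while every sh3F interval overlapped both shControl intervals.

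Kdm1a, the demethylase, was close to even between its replicates and somewhat lower in sh3F cells. It measured 22.8 and 23.8 CPM in sh3F libraries, against 27.5 and 27.8 CPM in shControl libraries. The groups did not overlap, as for 41.3% of all tested genes, and the gap between them exceeded the gap within each. The log2 fold change was -0.25 ± 0.15 (SE; adjusted p = 0.557, edgeR), or 84.4% of the shControl level with an interval of 68.3% to 104%. Kdm1b, the other flavin-dependent H3K4 demethylase, measured 4.96 and 4.63 CPM in sh3F libraries, against 4.50 and 5.93 CPM in shControl libraries, and the groups overlapped. Kdm1a made up 82.2% and 83.8% of the counts of these 2 genes in sh3F libraries, against 85.9% and 82.4% in shControl libraries. Kdm1a spans chr4:136550540-136602723 on the minus strand.

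Neither deacetylase gene separated the groups. Hdac2 measured 119 and 149 CPM in sh3F libraries, against 147 and 134 CPM in shControl libraries, and the groups overlapped. Its log2 fold change was -0.07 ± 0.14 (SE; adjusted p = 0.896, edgeR), or 95.1% of the shControl level with an interval of 78.7% to 115%. Hdac1 measured 19.6 and 19.9 CPM in sh3F libraries, against 22.3 and 19.8 CPM in shControl libraries, and here too the groups overlapped. Its log2 fold change was -0.09 ± 0.16 (SE; adjusted p = 0.885, edgeR), or 93.8% of the shControl level with an interval of 75.2% to 117%. Hdac2 made up 85.9% and 88.2% of the pair's counts in sh3F libraries, against 86.9% and 87.2% in shControl libraries. The mean share was 87.0% ± 1.66 in sh3F and 87.0% ± 0.205 in shControl cells (SD, n = 2 each). Hdac2 spans chr10:36974544-37001889 on the plus strand and Hdac1 chr4:129516104-129542713 on the minus strand.

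The Hdac1 count is uncertain, because processed pseudogenes carry almost the same sequence. Of the 31-base words of Hdac1, 40.02% occur in another gene, mainly in Gm10093 on chromosome 17, and over 1444 aligned bases the Hdac1 coding sequence and Gm10093 were 99.4% identical. The 120 coding bases with the most differences are shown for both, from chr4:129522975-129523094 on the minus strand and chr17:78491944-78492063 on the plus strand, with the differing bases in capitals.
Hdac1: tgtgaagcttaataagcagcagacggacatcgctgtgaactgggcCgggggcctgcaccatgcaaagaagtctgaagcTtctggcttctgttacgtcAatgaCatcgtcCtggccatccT
Gm10093: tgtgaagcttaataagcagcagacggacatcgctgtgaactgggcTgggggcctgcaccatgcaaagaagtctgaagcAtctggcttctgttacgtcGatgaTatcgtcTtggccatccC
Even in this stretch only 6 of 120 bases differed. The pseudogenes Gm10093 and Gm4864 together received 79.0 and 76.2 estimated counts in sh3F libraries, against 81.0 and 41.7 in shControl libraries. Their share of the sum with Hdac1 was 17.7% and 19.9% in sh3F libraries, against 14.5% and 13.7% in shControl libraries. With the 3 rows summed, a choice made after the data were seen, the log2 fold change was -0.01 (edgeR adjusted p = 0.989).

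Among the CoREST scaffold genes, the groups did not overlap for Rcor2 and overlapped for Rcor1 and Rcor3. Over all tested genes 41.3% did not overlap, and 21.7% had both sh3F libraries below. The fold changes of the 3 genes were not tested against each other. Rcor2, the scaffold known for its expression in neural progenitors, measured 6.93 and 7.88 CPM in sh3F libraries, against 8.73 and 8.49 CPM in shControl libraries. Both sh3F libraries lay below both shControl libraries. Its log2 fold change was -0.22 ± 0.20 (SE; adjusted p = 0.735, edgeR), or 85.7% of the shControl level with an interval of 64.8% to 113%. Without sh3F replicate 2 the log2 fold change was -0.31, and without sh3F replicate 1 it was -0.13. Rcor1, the founding member of the family, measured 5.49 and 5.99 CPM in sh3F libraries, against 5.90 and 5.71 CPM in shControl libraries. These groups overlapped, and the log2 fold change was -0.02 ± 0.23 (SE; adjusted p = 0.984, edgeR) with an interval of 72.2% to 135% of the shControl level. Rcor3 measured 6.34 and 7.95 CPM in sh3F libraries, against 7.52 and 7.44 CPM in shControl libraries. The sh3F libraries lay on either side of both shControl libraries, and the log2 fold change was -0.07 ± 0.21 (SE; adjusted p = 0.938, edgeR) with an interval of 71.2% to 127%. Of Rcor3, 8.34% of the exonic bases overlap antisense genes, and the sources used here do not say whether strand was kept.

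Rcor2 made up 36.9% and 36.1% of the counts of the 3 scaffold genes in sh3F libraries, against 39.4% and 39.2% in shControl libraries. The 4 exact binomial intervals all overlapped, from 31.9% to 42.2% and 30.97% to 41.5% in sh3F, and 35.0% to 44.0% and 33.6% to 45.1% in shControl libraries. These intervals cover counting error only and are no test between the groups. Across libraries the share was 36.5% ± 0.573 in sh3F and 39.3% ± 0.12 in shControl cells (SD, n = 2 each), and the groups did not overlap. The difference was -2.80 percentage points, with p = 0.33 in the exact permutation test, again the smallest it can give. Rcor1 spans chr12:111039351-111115901 and Rcor2 chr19:7267325-7275225, both on the plus strand, and Rcor3 chr1:192098546-192138062 on the minus strand.

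Hmg20b, the HMG-box subunit, had the lowest fold change of the 9. It measured 10.2 and 10.8 CPM in sh3F libraries, against 16.02 and 13.97 CPM in shControl libraries. The groups did not overlap, with the highest sh3F library at 10.8 CPM and the lowest shControl library at 13.97 CPM. Both sh3F libraries lay below both shControl libraries for 21.7% of all tested genes. The mean was 10.5 ± 0.448 CPM in sh3F and 15 ± 1.45 CPM in shControl cells (SD, n = 2 each). The log2 fold change was -0.52 (SE 0.18), or 69.7% of the shControl level with an interval of 54.5% to 89.1%. Its unadjusted p was 0.0045, which did not pass after adjustment over all tested genes (edgeR adjusted p = 0.142). Without shControl replicate 2 the adjusted p was 0.0357, so that call depended on which libraries were kept. Without shControl replicate 1 it was 0.328, and without either sh3F library 0.917 and 0.55. Hmg20b spans chr10:81346048-81350480 on the minus strand.

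Of the 9 genes, edgeR called 0 at the threshold of 0.05 on the adjusted p, while 1.37% of all 14050 tested genes passed, 76 higher (0.541%) and 116 lower (0.826%). When libraries were scaled by size alone, 77 genes were higher and 28 lower, and again 0 of the 9 passed. With DESeq2 and with limma-voom the count of members was also 0. At an unadjusted p under 0.05 the count was 1, Hmg20b, in each of the 3 tools, against 12% of all genes in edgeR (6.85% lower). The libraries of the groups did not overlap for 5 of the 9 genes, 4 lower (Phf21b, Kdm1a, Rcor2, Hmg20b) and 1 higher (Phf21a), against 41.3% of all tested genes. With directions pooled, the share among the members was near the background. By direction, 4 of the 9 lay below, against 21.7% of all tested genes, and 1 lay above, against 19.6%. With so few genes these shares are a description only. The median log2 fold change was -0.09 over the 9 members and -0.01 over all tested genes. The members' median was -0.24 without sh3F replicate 2 and -0.01 with libraries scaled by size alone, where that of all tested genes was 0.07. Of the 9 fold changes 8 were below 0, against 51.1% of all tested genes. Only 5 were below 0 when libraries were scaled by size alone or when sh3F replicate 1 was left out. Rcor1, Rcor3 and Hdac2 were then above 0.

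**Figure D2:**
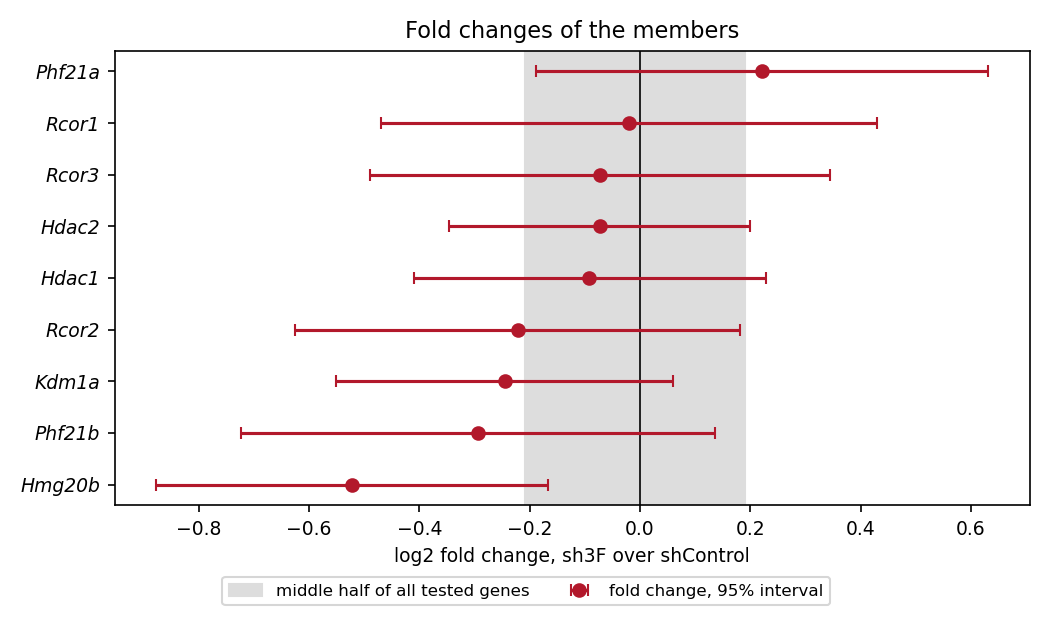
Log2 fold change of sh3F over shControl (x axis) for the 9 genes, with 95% intervals from the edgeR fit. The grey band spans the lower to the upper quartile of all tested genes, from -0.21 to 0.19. Hmg20b, at -0.52, is the only one of the 9 whose interval does not include 0, and its adjusted p did not pass.

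The intervals of the 9 genes hold under the edgeR fit only, and rest on few libraries whose spread may be technical. They do not exclude larger changes in these transcripts. The lowest lower bound was 54.5% of control, for Hmg20b, and the highest upper bound was 155%, for Phf21a. No interval of the 9 genes reached beyond these values. For most of the 9 genes, replicates differed no more than counting error allows, an error that is wide at low counts. In 16 of 18 replicate pairs the difference in CPM was under 2 times its counting error. The exceptions were the pairs of Hdac2, the member with the most counts, with differences of 7.45 and 3.18 times the counting error in sh3F and shControl cells. Pooled over genes with enough counts, replicates differed beyond counting error. The pooled chi-square over its degrees of freedom was 6.88 for the sh3F and 17.0 for the shControl replicates. Genes with many counts can carry this value, so it does not describe each gene. Of 10 neuron markers 2 fell past the threshold (Tubb3 and Neurod6), as did 0.826% of all tested genes, and 8 did not pass. Of the 10 fold changes 9 were below 0, and that of Rbfox3 was 0.20. Neurod6 kept its call under each alternative, and Tubb3 lost it with libraries scaled by size alone (edgeR adjusted p = 0.0728) and without either sh3F library. The markers' part in the members' values was not tested. In bulk RNA, fewer cells of a type and less RNA per cell cannot be told apart.

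Levels of different genes were compared per kilobase (kb) of annotated exons. Hdac2 led with 26.6 to 33.3 CPM per kb over the 4 libraries, and no other member came within its range. Hdac1 followed with 5.69 to 6.46, Kdm1a with 4.41 to 5.37 and Hmg20b with 3.23 to 5.09 CPM per kb. The ranges of Kdm1a and Hmg20b overlapped, so the order of this pair is not settled by the libraries. Rcor2 came next with 2.19 to 2.77 and Phf21b with 1.29 to 1.73 CPM per kb. Rcor1 (0.966 to 1.05) and Phf21a (0.770 to 1.03) overlapped, and Rcor3 was lowest with 0.466 to 0.584 CPM per kb. The length matters for this order, because the table holds no isoform counts. With the mean length of the coding transcripts in place of all exons, Phf21b ranked 8 in place of 6, below Phf21a, and Rcor3 ranked 6 in place of 9. Kdm1a then ranked 2 in place of 3, above Hdac1. Hdac2 ranked 1 and Rcor2 ranked 5 with each of the 3 lengths tried. Rcor2 had the highest mean of the 3 scaffold genes with each length, at 60.4% to 63.5% of the family's level per kb of exons and 35.9% to 39.2% per kb of longest coding sequence. Its range overlapped that of Rcor3 per kb of longest coding sequence (4.416 to 5.565 against 3.837 to 4.808 CPM per kb). The 2 ranges also overlapped with the mean transcript length (3.941 to 4.966 against 3.224 to 4.04).

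**Figure D3:**
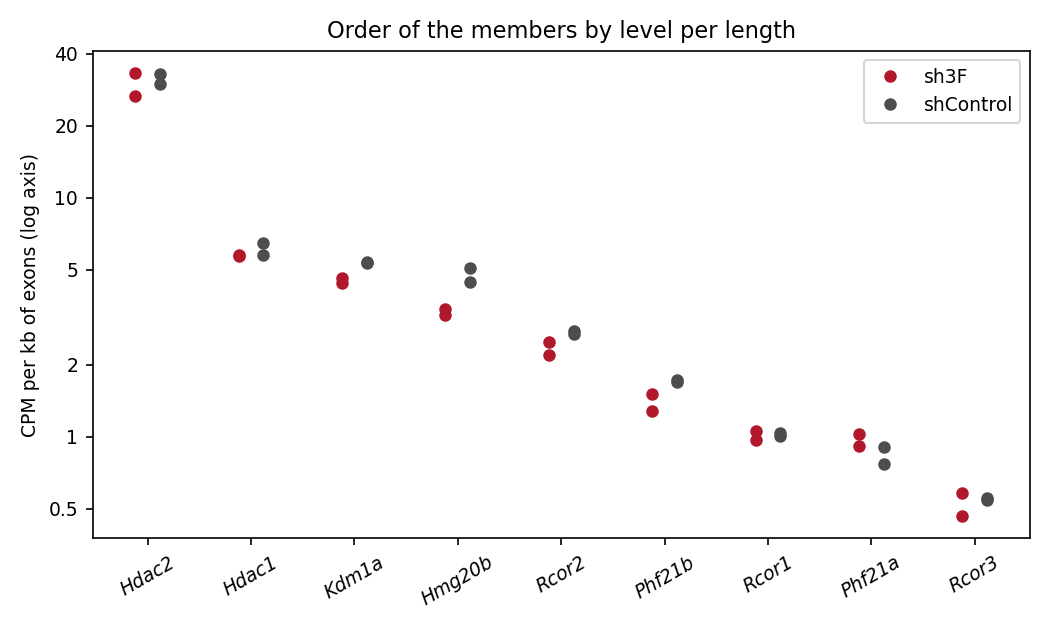
Level of the 9 genes in CPM per kb of exons on a log axis, in order of the mean over 4 libraries. Points are libraries, sh3F on the left of each gene and shControl on the right. Hdac2 lies near 30 CPM per kb and Rcor3 near 0.5, and Kdm1a and Hmg20b overlap.

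**Figure D4:**
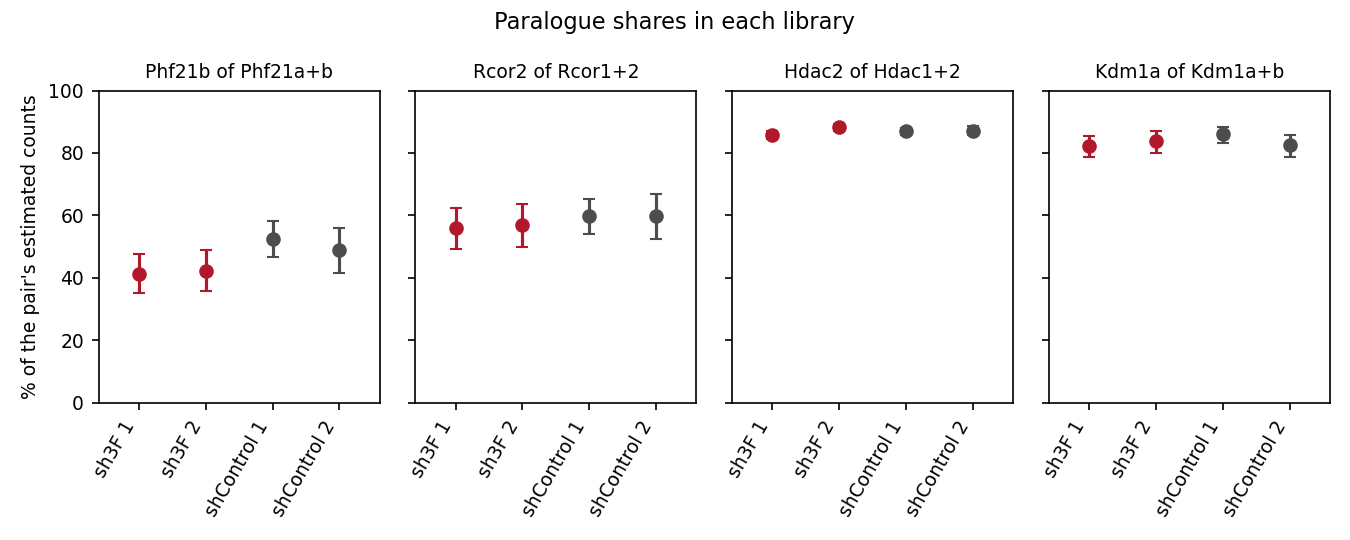
Share of the pair's estimated counts (y axis, percent, 0 to 100) held by Phf21b (with Phf21a), Rcor2 (with Rcor1), Hdac2 (with Hdac1) and Kdm1a (with Kdm1b) in each library. Error bars are exact binomial 95% intervals. Phf21b holds 41.2% and 42.3% in sh3F and 52.3% and 48.8% in shControl libraries, and Hdac2 holds 85.9% to 88.2% throughout.

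Proteins that bind or recruit the complex gave 0 calls among 16 tested genes of a list of 20, with a median log2 fold change of -0.13. Of the 3 genes highest in CPM, Ctbp1 and Zmym2 overlapped between the groups. Gtf2i did not, and neither did 41.3% of all tested genes. Ctbp1, a corepressor that joins LSD1 to other repressors, measured 45.5 and 41.0 CPM in sh3F libraries, against 48.9 and 37.2 CPM in shControl libraries. Zmym2, a zinc-finger partner of the complex, measured 24.2 and 27.7 CPM in sh3F libraries, against 28.4 and 24.6 CPM in shControl libraries. Gtf2i measured 25.2 and 23.9 CPM in sh3F libraries, against 28.8 and 26.5 CPM in shControl libraries, with sh3F below. Of the recruiters Gfi1, Gfi1b, Snai1 and Snai2, none passed the filter on low counts, and Gfi1b had no count in any library.

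Of these partners, 3 had an unadjusted p under 0.05 in edgeR and are named for that, after their values were seen. Rest, the repressor that recruits the complex to neuronal genes, measured 7.68 and 6.71 CPM in sh3F libraries, against 4.46 and 5.41 CPM in shControl libraries. Both sh3F libraries lay above both shControl libraries, as for 19.6% of all tested genes. The log2 fold change of Rest was 0.56 (SE 0.23; edgeR adjusted p = 0.251). Over the alternatives its fold change ranged from 0.41 without shControl replicate 1 to 0.71 without shControl replicate 2, past the threshold in none. Zmym3, another zinc-finger partner, measured 8.96 and 7.56 CPM in sh3F libraries, against 12.7 and 10.9 CPM in shControl libraries (log2 fold change -0.52, SE 0.19; edgeR adjusted p = 0.191). Zfp516 measured 5.86 and 5.99 CPM in sh3F libraries, against 3.25 and 4.13 CPM in shControl libraries (log2 fold change 0.70, SE 0.25; edgeR adjusted p = 0.156). Without shControl replicate 2 the adjusted p of Zfp516 was 0.0347.

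Enzymes that act on the same histone residue gave 0 calls among 16 tested genes, where 1.37% of all tested genes were called. Their log2 fold changes ran from -0.29 to 0.15 around a median of -0.08. That median was -0.17 without sh3F replicate 1 and turned to 0.03 without shControl replicate 2. Dpy30, a subunit shared by the H3K4 methyltransferase complexes, measured 249.3 and 249.0 CPM in sh3F libraries, against 215 and 236 CPM in shControl libraries. Ash2l, another shared subunit, measured 14.9 and 15.9 CPM in sh3F libraries, against 18.4 and 19.0 CPM in shControl libraries. Kmt2a, a methyltransferase, measured 13.6 and 11.2 CPM in sh3F libraries, against 12.8 and 15.8 CPM in shControl libraries. Dpy30 stood above and Ash2l below in sh3F cells, neither past the threshold (edgeR adjusted p = 0.753 and 0.521), and Kmt2a overlapped.

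Other complexes that hold class I deacetylases (NuRD, Sin3, NCoR and related ones) gave 0 calls among 29 tested genes. Over all tested genes the called share was 1.37%. The median log2 fold change of these 29 genes was -0.08. Rbbp4, a histone chaperone of NuRD and Sin3, measured 229 and 255 CPM in sh3F libraries, against 273 and 230.3 CPM in shControl libraries. Its count is uncertain, since 22.0% of its 31-base words occur in another gene. Sin3b, a scaffold, measured 95.5 and 90.1 CPM in sh3F libraries, against 83.1 and 79.3 CPM in shControl libraries, and Rbbp7 74.0 and 74.1 CPM in sh3F, against 72.3 and 56.3 CPM in shControl libraries. For both of these the sh3F libraries stood above, at edgeR adjusted p = 0.612 and 0.607. At an unadjusted p under 0.05 the counts were 0 for these deacetylase genes and 0 for the H3K4 enzymes in each of edgeR, DESeq2 and limma-voom. For the partners they were 3, 0 and 3 of 16. Over all tested genes the share at this level was 12% with edgeR, 3.52% with DESeq2 and 12.8% with limma-voom.

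Neuronal genes known as targets of Rest, through which the complex represses, were mostly lower in sh3F cells. Of 25 tested genes 1 fell, Tubb3, 0 rose and 24 did not pass, where 0.826% of all tested genes fell. At an unadjusted p under 0.05 in edgeR, 11 of the 25 were lower and 0 higher, where 6.85% of all tested genes were lower. In either direction the counts were 5 with DESeq2 and 11 with limma-voom, against 3.52% and 12.8% of all tested genes. These counts are a description only. Tubb3, the neuronal beta-tubulin, measured 64.3 and 61.6 CPM in sh3F libraries, against 118 and 88.6 CPM in shControl libraries (log2 fold change -0.72, SE 0.14; edgeR adjusted p = 0.000445). Its adjusted p was 0.0728 with scaling by library size alone, 0.0657 without sh3F replicate 1 and 0.0852 without sh3F replicate 2. The median of these log2 fold changes was -0.29 (-0.21 with libraries scaled by size alone), and 22 of the 25 fold changes were below 0, against 51.1% of all tested genes. Both sh3F libraries lay below both shControl libraries for 18 of the 25, against 21.7% of all tested genes. Highest in CPM were Stmn2 and Stmn3, tubulin regulators, and Gria2, an AMPA receptor subunit. Stmn2 measured 272 and 253 CPM in sh3F libraries, against 328 and 308 CPM in shControl libraries, and Stmn3 225 and 220.2 CPM in sh3F, against 281 and 256 CPM in shControl libraries. Gria2 measured 78.2 and 88.7 CPM in sh3F libraries, against 95.5 and 108 CPM in shControl libraries. For all 3 both sh3F libraries lay below both shControl libraries, and none of the 3 passed (edgeR adjusted p = 0.417, 0.434 and 0.36). These genes are also neuronal genes in general, and 3 of them stand on the neuron marker list. Without those 3 the median over 22 tested genes was -0.30. The summed neuron markers were lower in both sh3F libraries, and their part in this pattern was not tested.

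**Figure D5:**
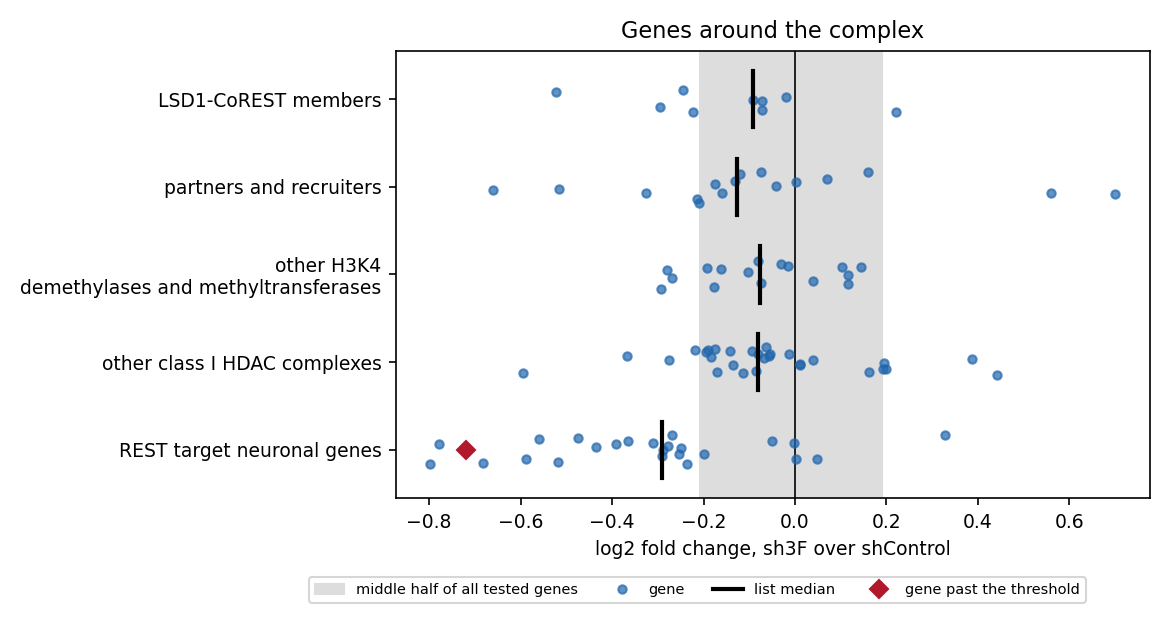
Log2 fold change of sh3F over shControl (x axis) for tested genes of 5 lists (y axis). Points are genes, the diamond is Tubb3, the 1 gene past the threshold, black bars are list medians and the grey band spans the quartiles of all tested genes. The Rest target genes have a median of -0.29, against -0.09 for the members.

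The members' promoters were rich in CpG, the dinucleotide of unmethylated promoter islands. The 8 members in the promoter table held 21 to 47 CpG in 300 bases, with Rcor2 lowest and Rcor3 highest, and 30 for Phf21b. RefSeq promoters (GRCm38.p6) span 250 bases before to 50 after the start. The members' median was 31, against 7 over all 27025 genes with a promoter, and 25.0% of all genes had at least 21. These include genes that did not pass the filter on low counts. No comparison was made with tested genes alone, so the values do not set the members apart from other expressed genes.

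The 3 genes whose pattern over the 4 libraries was nearest to that of Phf21b were Zfp384, Kntc1 and Lonp2. Likeness was the distance between log2 CPM values, each set relative to the gene's own mean, among 5162 genes of similar level. The distances were 0.0415, 0.0426 and 0.0429 log2 units. Zfp384 measured 5.38 and 6.38 CPM in sh3F libraries, against 6.92 and 7.29 CPM in shControl libraries. With 4 libraries and this many genes, close matches are a description only.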

How the data were processed

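RNA was sequenced from 2 sh3F and 2 shControl libraries. Estimated counts for each gene, without normalization, were deposited by the authors in 1 table. The submitters' processing notes name Salmon and the builds GRCm38 and mm10, while version and annotation were not given in the sources used here. An NEBNext Ultra II kit was used on total RNA, per the labels' protocols. All 4 columns belong to the series, and estimated counts were rounded before testing.

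Identifiers were matched without version to GENCODE M21 (GRCm38), which gave 34652 of 34866 a symbol. Genes were tested in R 4.3.3 with edgeR 4.0.16: TMM factors (1.05 and 1.01 in sh3F, 1.04 and 0.907 in shControl), filterByExpr with a minimum count of 10, a robust quasi-likelihood fit without a replicate block and a two-sided F test, adjusted by Benjamini-Hochberg over 14050 genes with a threshold of 0.05. The SE is the fold change over the square root of F. Counts of list genes past the threshold are given over all genes. DESeq2 1.42.0 (without the filter, on 22122 genes), limma 3.58.1 (voom), other scalings and filters, a replicate block and each library left out were alternatives. Scripts were tested on simulated data. A planned share is not reported here.

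The members and lists were chosen with earlier results of these data known. By rule, the genes named are the 9 members, list genes past the threshold, the 3 most abundant of each list and the 3 nearest in pattern to Phf21b. Other genes were named outside this rule. Among them are Rest, Zmym3 and Zfp516, named after their values were seen. Zfp57 and Zfp7, Kdm1b and single cell type markers are others.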

Additional observations from a re-analysis of the deposited data

How the results depend on the processing

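The count of members past the threshold was 0 under 12 of 13 alternatives and 1 (Hmg20b) without shControl replicate 2, so it ranged from 0 to 1 when 1 library was left out. The log2 fold change of Phf21b ranged from -0.41 to -0.18 over the 13 alternatives, past the threshold in none. The genes higher over all genes were 23 with DESeq2 and ranged from 27 to 280 with 1 library left out. The genes lower were 28 with scaling by library size alone, 32 with DESeq2 and from 17 to 334 with 1 library left out; the cause was not tested. With scaling by library size alone the fold changes of Rcor1, Rcor3, Hdac2, Rbbp4 and Zmym2 turned to 0.06, 0.01, 0.01, 0.02 and 0.04. With no filter on low counts that of Ctbp1 was -0.01. With 1 library left out the ranges were -0.08 to 0.04 (Rcor1), -0.24 to 0.09 (Rcor3), -0.24 to 0.08 (Hdac2), -0.98 to 0.03 (Zfp7), -0.16 to 0.07 (Rbbp4), -0.14 to 0.07 (Zmym2) and -0.16 to 0.22 (Ctbp1). Leaving out 1 library leaves a group with 1, which is assumed to vary like the other group.

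The replicate numbers share only a number: the deviations of same-numbered libraries correlated at -0.03 over genes. With a replicate block 75 genes were higher and 97 lower, 0 members passed and the log2 fold change of Phf21b was -0.30. Depth limits the low members: Phf21b rested on 98 to 156 counts a library.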
